A study of Mus musculus with 16 samples.

Results

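The Clca genes stand side by side on mouse chromosome 3 and encode the calcium-activated chloride channel regulators. The 6 members described here, Clca1, Clca2, Clca3a1, Clca3a2, Clca4a and Clca4b, were taken by name from the 24454 genes of the count table. The set was chosen by values of these same mice, because Clca1 and Clca4a were much higher in HSALR than in control muscle. A further coding gene, Clca3b, lies between Clca3a2 and Clca4b and was added because of its position. The levels of the members in that comparison, and those of Clca1, Clca4a and Clca3b in every comparison, are given as a description, without a test.

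RNA was sequenced from gastrocnemius muscle of mice aged 3 months. HSALR mice, a model of myotonic dystrophy type 1, were homozygous for the LR20b line, in which a human skeletal actin transgene (HSA) with expanded CTG repeats is transcribed in skeletal muscle fibres, and FVB/N mice without the transgene were the controls. Mice of each genotype received vehicle or AICAR, an activator of the AMP-activated protein kinase, at 500 mg/kg for 7 days, with 5 mice in each HSALR group and 3 mice in each FVB group. HSALR and FVB animals come from separate lines and are not littermates, so that the transgene and any other difference between the lines cannot be told apart, and mice are named below by the numbers of their labels.

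CLCA proteins were first taken for chloride channels. They are now known as secreted or shed proteins that cut themselves with their own zinc-dependent protease domain and that modulate chloride channels formed by other proteins. CLCA1 is released by the goblet cells of gut and airway, where interleukin 13 induces it, and it stabilises the channel formed by Ano1 at the cell surface. Clca2 is a gene of stratified epithelia, Clca3a1 marks lymphatic vessels, and Clca4a and Clca4b are genes of the intestinal epithelium. None of them is a classic muscle gene. In the muscle of patients and mice with expanded CUG repeats, the chloride conductance is low because the muscle channel Clcn1 is mis-spliced.

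The cluster covered chr3:144729677-145099443 (GRCm38, the assembly of the mm10 files), a span of 369.8 kb with 12 genes in the RefSeq annotation, of which 8 had a row of counts. All 8 were on the minus strand. In the order of rising coordinates they were Clca3a1 (chr3:144729677-144760977), Clca3a2 (chr3:144780581-144819623), Clca3b (chr3:144822623-144849302), the pseudogene Clca4c-ps (chr3:144879322-144896011), Clca4b (chr3:144910921-144932529), Clca4a (chr3:144952486-144975045), Clca1 (chr3:145004537-145032776) and Clca2 (chr3:145070260-145099443). The other 4 annotated genes were not in the count table. Clca4a overlapped the long noncoding RNA Gm35066, Clca3a1 overlapped Gm34866, and Clca3a2 and Clca3b each overlapped an annotated pseudogene. Reads of such partners may be included in the counts of these genes, since the sources used here do not say whether strand was used in counting.

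The coding sequences show which members are close copies and which are not. All 6 members and Clca3b had a complete coding transcript in the GENCODE annotation, each with 14 exons and between 902 and 1044 codons. Each held, in frame, the codons of the zinc-binding motif of the protease domain, which are histidine, glutamate, any 2 residues and histidine. The 45 bases around these codons are printed 5′ to 3′ on the coding strand, with the motif in capitals, because they show which genes of the cluster are near copies.
Clca1, chr3:145024585-145024629: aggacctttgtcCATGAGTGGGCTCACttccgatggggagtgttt
Clca2, chr3:145092181-145092225: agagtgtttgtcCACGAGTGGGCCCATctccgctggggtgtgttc
Clca3a1, chr3:144758020-144758064: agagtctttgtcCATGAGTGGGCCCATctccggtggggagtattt
Clca3a2, chr3:144816764-144816808: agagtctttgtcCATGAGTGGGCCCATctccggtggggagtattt
Clca3b, chr3:144846424-144846468: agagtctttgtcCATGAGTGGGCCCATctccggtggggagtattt
Clca4a, chr3:144969367-144969411: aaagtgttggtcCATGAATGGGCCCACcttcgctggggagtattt
Clca4b, chr3:144927187-144927231: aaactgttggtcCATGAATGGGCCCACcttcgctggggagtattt

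The stretches of Clca3a1, Clca3a2 and Clca3b were identical. Those of Clca4a and Clca4b differed in 1 of 45 letters, whereas Clca1 differed from Clca4a in 12 and from Clca2 in 11. Over the aligned coding bases, identity was 97.1% between Clca3a1 and Clca3a2, 96% between Clca4a and Clca4b, and 87.1% between Clca3a2 and Clca3b. Clca1 was 67% identical to Clca4a, 68% to Clca3b and 62.2% to Clca2. Of the windows of 100 bases in the transcript of Clca4b, 173 of 2898 also occurred in that of Clca4a. For Clca3a1 and Clca3a2, 297 of 3425 windows were shared, and for Clca3a2 and Clca3b, 18 of 3555. Clca1 shared no such window with any other gene of the cluster, and its longest common run with one of them was 20 bases. Reads from the shared stretches cannot be assigned to 1 copy. The counts of Clca3a1, Clca3a2 and Clca3b and of Clca4a and Clca4b thus carry an uncertainty that those of Clca1 do not.

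Sequence before the start used by the RefSeq promoter table is shown for Clca3a2 and Clca3b, since many bases there were shared by these neighbours. Entries of that table (GRCm38.p6) were at hand for 4 of the 6 members (Clca2, Clca3a1, Clca3a2 and Clca4b) and for Clca3b. In the 250 bases before this start, 107 bases of Clca3a2 and Clca3b could be aligned, and 96 of these were identical. The part that lies before the Clca3b start of both annotations is printed on the minus strand, with the letters that the genes share in capitals. The Clca3a2 stretch lies inside the longer span that RefSeq gives for that gene.
Clca3a2, chr3:144819542-144819601: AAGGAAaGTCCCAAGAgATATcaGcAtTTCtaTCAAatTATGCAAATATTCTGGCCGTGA
Clca3b, chr3:144849358-144849422: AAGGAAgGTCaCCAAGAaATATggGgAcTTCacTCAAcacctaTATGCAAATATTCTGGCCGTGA

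Both stretches held the octamer ATGCAAAT. On either strand, these letters occurred in the 250 bases before the table's start in 1.6% of 32817 RefSeq promoters, and they did not occur in those of Clca2, Clca3a1 or Clca4b. A match of letters is not evidence of binding.

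Levels are given as normalized CPM, that is, counts relative to the library size after TMM scaling. The libraries held between 64890014 and 81987726 counts, and 3 counts, used as the floor, corresponded to 0.0365 to 0.0459 normalized CPM. This floor covers counting error only. A low count in bulk muscle can mean few cells of a type or little RNA per cell, and these cannot be told apart here.

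Clca1 was close to the floor in control muscle and present in every HSALR library. In FVB mice after vehicle its level was 0.0142, 0.0383 and 0.0951 (mice S445, S446 and S450), which are 1, 3 and 7 counts. In HSALR mice after vehicle it was 4.79, 2.96, 2.52, 1.24 and 2.32 (mice S451, S452, S453, S458 and S459), from 344, 218, 170, 102 and 174 counts. The lowest HSALR library was thus far above the highest FVB library. After AICAR, FVB mice had 0.199, 0.196 and 0.0573 (mice S447, S448 and S449). HSALR mice after AICAR had 1.96, 0.829, 1.62, 0.911 and 1.48 (mice S454, S455, S460, S462 and S463). The group means were 0.0492 ± 0.0415 (SD, n = 3), 0.151 ± 0.0811 (SD, n = 3), 2.77 ± 1.29 (SD, n = 5) and 1.36 ± 0.482 (SD, n = 5) for FVB after vehicle, FVB after AICAR, HSALR after vehicle and HSALR after AICAR.

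Clca4a followed the same order of groups and was the most abundant member in HSALR muscle. FVB mice after vehicle had levels of 0.0854, 0.0255 and 0, from 6, 2 and 0 counts. FVB mice after AICAR had 0.896, 0.916 and 0.172, from 63, 70 and 12 counts. In HSALR mice after vehicle, Clca4a was at 6.89, 3.78, 4.33, 2.25 and 5.10, and after AICAR at 2.17, 1.79, 5.14, 2.17 and 2.75. The 4 groups therefore lay in a row without overlap between genotypes, while the HSALR groups overlapped each other. Group means were 0.037 ± 0.0438 (SD, n = 3) and 0.661 ± 0.424 (SD, n = 3) in FVB and 4.47 ± 1.71 (SD, n = 5) and 2.80 ± 1.35 (SD, n = 5) in HSALR mice, each after vehicle and after AICAR.

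Clca3b, the gene added by position, was near the floor in both FVB groups and higher in every HSALR library. Its level was 0.0854, 0.0128 and 0 in FVB mice after vehicle and 0.0853, 0.0654 and 0 after AICAR, with at most 6 counts in any of these libraries. In HSALR mice after vehicle it was 2.64, 1.66, 1.45, 0.707 and 1.44. After AICAR it was 0.357, 0.173, 0.882, 0.43 and 0.382 in HSALR mice. Vehicle-treated mouse S451 had the highest level of Clca1, Clca4a and Clca3b, and vehicle-treated mouse S458 the lowest of all 3 genes in its group.

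Clca2 and Clca3a1 were measured at low levels in every library, with groups that overlapped. Clca2 ranged from 0.413 to 0.761 in FVB mice after vehicle, from 0.444 to 1.64 in FVB mice after AICAR, from 0.621 to 1.60 in HSALR mice after vehicle and from 0.356 to 0.933 in HSALR mice after AICAR. Clca3a1 ranged from 0.286 to 0.641 over all 16 libraries, with group means between 0.378 ± 0.068 (SD, n = 5) in HSALR mice after AICAR and 0.47 ± 0.178 (SD, n = 3) in FVB mice after AICAR. Clca4b, the close copy of Clca4a, had between 0 and 3 counts in each library and did not pass the filter on low counts. Clca4c-ps had no count in any library. A level of Clca4b above the floor was thus not detectable at this depth, in the same libraries in which Clca4a had up to 495 counts.

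**Figure D1:**
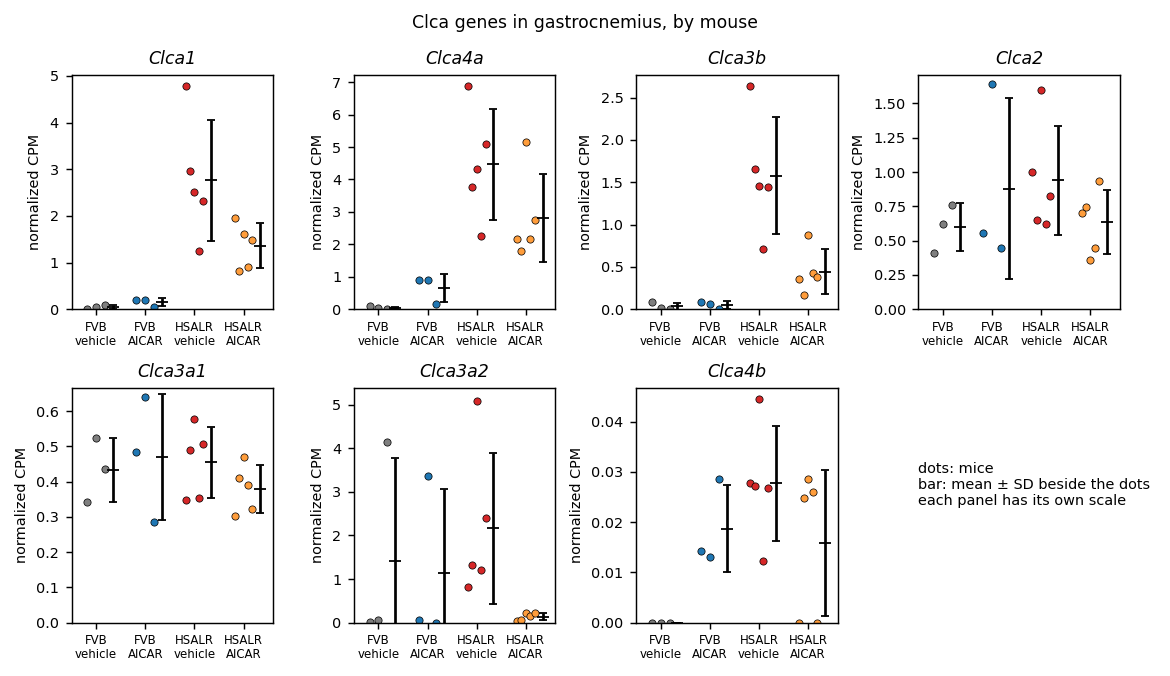
Normalized CPM of the 6 members and Clca3b by mouse (dots) in the 4 groups, with the mean and SD beside the dots (bars are cut at 0) and a scale of its own in each panel. Clca1, Clca4a and Clca3b lie near 0 in FVB mice after vehicle and higher in all 10 HSALR mice, Clca2 and Clca3a1 overlap between groups, and Clca3a2 has high values in mice of several groups.

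Clca3a2 had high values in single mice of both FVB groups. In FVB mice it was 4.14 in mouse S450 after vehicle and 3.36 in mouse S448 after AICAR, and between 0 and 0.0638 in the other 4. In HSALR mice after vehicle it was 0.807, 1.32, 5.09, 1.21 and 2.40. After AICAR it was 0.0411, 0.0495, 0.213, 0.143 and 0.214 in HSALR mice. The within-group spread of FVB mice was larger than their means, which were 1.41 ± 2.37 (SD, n = 3) after vehicle and 1.14 ± 1.93 (SD, n = 3) after AICAR.

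The high values of Clca3a2 stood in libraries that also held epidermal transcripts. Krt14, a keratin of the basal epidermis, was above 1 CPM in 6 libraries (FVB mice S450 and S448, and HSALR mice S452, S453, S458 and S459). The sum of 8 epidermal markers was 18.6 to 187 CPM in these 6 and 0.242 to 1.21 CPM in the other 10. Clca3a2 was at 1.21 to 5.09 in the 6 libraries and at 0 to 0.807 in the 10. No library of HSALR mice after AICAR was among the 6. The sum of epidermal markers ranged from 0.256 to 92.3 in FVB mice after vehicle, from 0.243 to 104 in FVB mice after AICAR, from 0.612 to 187 in HSALR mice after vehicle and from 0.242 to 0.371 in HSALR mice after AICAR, and none of the 8 markers, of which Krt5 was the highest and Lor the lowest, was at 0 in all libraries. The part of epidermal RNA in the values of Clca3a2 was not tested.

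Among the 10 libraries with little Krt14, Clca3a2 had 1 to 5 counts in FVB mice after vehicle, 0 to 4 counts in FVB mice after AICAR, 58 counts in the only HSALR mouse after vehicle (S451) and 3 to 15 counts in HSALR mice after AICAR. HSALR mouse S451, with 0.612 CPM of epidermal markers, had the highest values of Clca1 and Clca4a of all mice. FVB mouse S450, with 92.3 CPM of epidermal markers, had 7 counts of Clca1 and none of Clca4a. The highest levels of Clca2, 1.64 in FVB mouse S448 and 1.60 in HSALR mouse S453, stood in the libraries with the most epidermal markers (104 and 187 CPM).

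**Figure D2:**
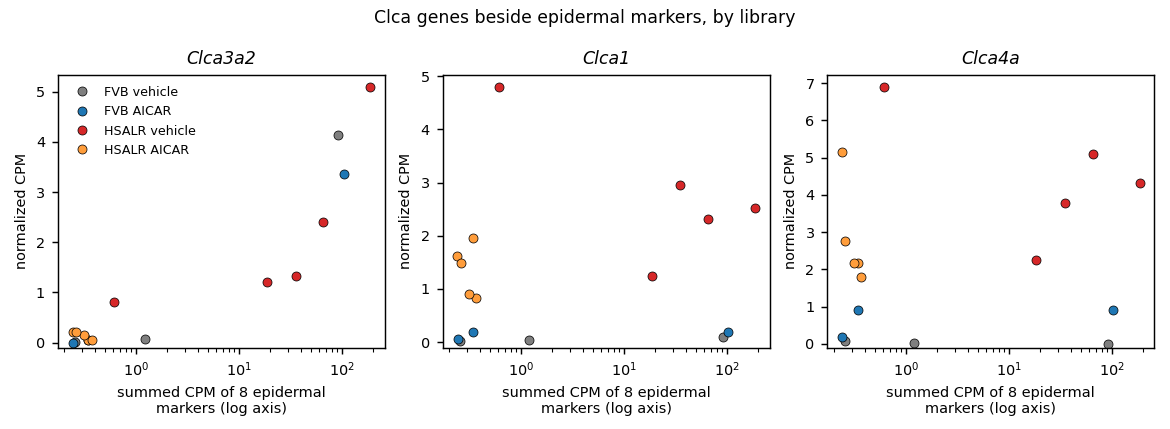
Normalized CPM of Clca3a2, Clca1 and Clca4a against the summed CPM of 8 epidermal markers (log axis) in each of the 16 libraries, coloured by group. Clca3a2 is highest in the libraries with 18.6 to 187 CPM of epidermal markers, whereas Clca1 and Clca4a are highest in HSALR mouse S451, at 0.612 CPM.

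Levels of different genes were compared per kb of transcript. In HSALR mice after vehicle, the mean was 1.49 CPM per kb for Clca4a, 0.943 for Clca1, 0.592 for Clca3a2, 0.478 for Clca3b, 0.24 for Clca2, 0.117 for Clca3a1 and 0.00923 for Clca4b. The SDs of these means were 0.57, 0.441, 0.475, 0.211, 0.102, 0.0259 and 0.00382, so that neighbours in this order were not apart by more than their spread down to Clca3b, and Clca3a1 lay below Clca2 by slightly more than the SD of Clca2. In FVB mice after vehicle the order was different. Clca3a2 (0.385 CPM per kb, carried by mouse S450), Clca2 (0.153) and Clca3a1 (0.111) led, and Clca1 (0.0168), Clca4a (0.0123) and Clca3b (0.0099) were lowest among the genes with counts in that group. Clca4a and Clca1 are neighbours on the chromosome, and Clca4b, at 0 to 3 counts, and the pseudogene Clca4c-ps lie between Clca4a and Clca3b.

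**Figure D3:**
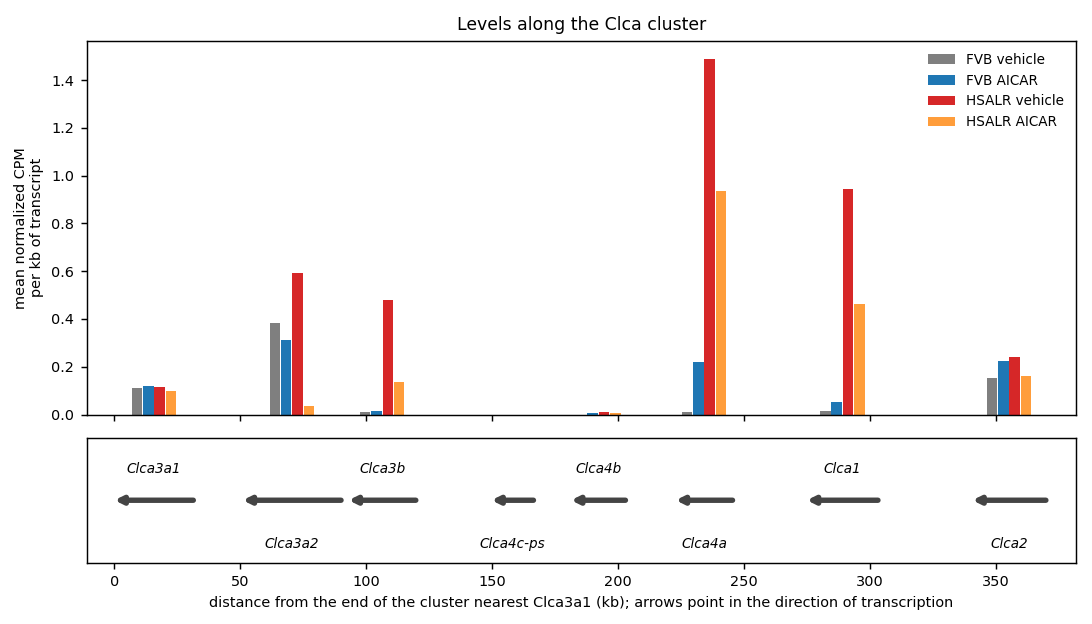
Mean normalized CPM per kb of transcript in the 4 groups (bars) at the place of each gene along the cluster, in kb from the end nearest Clca3a1, with arrows in the direction of transcription. In HSALR mice after vehicle Clca4a reaches 1.49 and Clca1 0.943 CPM per kb, while Clca4b between Clca3b and Clca4a stays at 0.00923.

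As a share of all counts of the 7 coding Clca genes, Clca4a made up 36% ± 5.55 and Clca1 22% ± 5.71 in HSALR mice after vehicle (SD, n = 5). After AICAR the shares in HSALR mice were 47.2% ± 7.32 for Clca4a and 23.9% ± 6.84 for Clca1 (SD, n = 5). In FVB mice after vehicle Clca2 had 35.3% ± 18.6 and Clca3a1 28.1% ± 17.6 of the counts, and Clca4a had 3.65% ± 4.7 (SD, n = 3). Clca3a2 had 27.6% ± 42.2 in this group (SD, n = 3), with a range of 1.49% to 76.2%. After AICAR the share of Clca4a in FVB mice was 23.3% ± 13.8 (SD, n = 3). The 7 genes together had 525 to 1186 counts in HSALR mice after vehicle, 325 to 612 in HSALR mice after AICAR, and 67 to 522 in FVB mice.

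The first comparison asked how HSALR muscle differed from control muscle after vehicle, and it is the comparison that selected the set. The fitted log2 fold changes were 6.89 (SE 0.78) for Clca4a, 5.76 (SE 0.62) for Clca1 and 5.56 (SE 0.83) for Clca3b. The ratios of the group means were 121, 56.2 and 48.3. These ratios rest on very few counts in the controls, in which Clca4a had 8 counts over 3 libraries. Without FVB mouse S445 the log2 fold changes were 8.23 for Clca4a and 7.58 for Clca3b, and without FVB mouse S450 that of Clca1 was 6.60. For the other members the fitted values were 0.64 (SE 0.45) for Clca2, 0.07 (SE 0.27) for Clca3a1 and 0.62 (SE 1.28) for Clca3a2. Clca3a2 had 5.69 without FVB mouse S450, the mouse with its highest FVB level. Of all 15487 genes that passed the filter on low counts, 26.9% differed in this comparison at an adjusted p-value under 0.05, and nothing is read from that share for the members.

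The same genotypes were compared after AICAR. Clca1 was 9.02 times higher in HSALR than in FVB mice by the ratio of means, with a log2 fold change of 3.15 (SE 0.53). For Clca4a the ratio was 4.24 and the log2 fold change 2.08 (SE 0.52). Every HSALR mouse was above every FVB mouse for both genes, and the lowest HSALR value of Clca4a was 1.79 against a highest FVB value of 0.916. Clca3b, which passed the filter on low counts only through HSALR libraries, is likewise described without a test. It had 0 to 6 counts in FVB and 14 to 62 in HSALR mice, and its ratio of means was 8.85.

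Clca2, Clca3a1 and Clca3a2 did not pass in this comparison. The log2 fold changes were -0.47 (95% interval -1.39 to 0.45) for Clca2 and -0.32 (95% interval -0.89 to 0.26) for Clca3a1, with adjusted p = 0.46 and adjusted p = 0.43 by edgeR. The direction for Clca2 turned without FVB mouse S448 (0.34) and was 0.02 with the epidermal sum as a covariate, and Clca3a1 was at -0.02 without that mouse. Clca3a2 had -3.13 (SE 1.44; adjusted p = 0.13 by edgeR), with the epidermal sum at 104 CPM in FVB mouse S448 and at most 0.371 CPM in the HSALR mice. Its value was 0.42 with the epidermal sum as a covariate and 2.12 without mouse S448. Over all genes 21.8% passed, 12.2% higher and 9.64% lower in HSALR mice, and nothing is read from these shares for the members, of which Clca1 and Clca4a were not tested.

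AICAR was next compared with vehicle within HSALR mice. The log2 fold change of Clca1 was -1.02 (SE 0.35), with means of 2.77 after vehicle and 1.36 after AICAR. Its groups overlapped, since vehicle-treated mouse S458 (1.24) was below AICAR-treated mice S454, S460 and S463. Without vehicle-treated mouse S451 the log2 fold change was -0.73, and with the epidermal sum as a covariate it was -1.24. Clca4a had a log2 fold change of -0.67 (95% interval -1.52 to 0.17). AICAR-treated mouse S460, at 5.14, lay above 4 of the 5 vehicle-treated mice. The vehicle-treated mice of both genes are those in which the set was chosen, and a high draw in them would enter here as a lower level after AICAR.

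Clca3b had a log2 fold change of -1.83 (SE 0.49), and of -2.435 with the epidermal sum as a covariate. Its means were 1.58 ± 0.696 after vehicle and 0.445 ± 0.263 after AICAR (SD, n = 5 each). It was not among the genes chosen by value, but its level went with those of Clca1 and Clca4a in the same vehicle-treated mice, so this difference is also a description. Only AICAR-treated mouse S460 (0.882) reached the range of the vehicle group, above its lowest mouse S458 (0.707). Clca2 and Clca3a1 had log2 fold changes of -0.56 and -0.26 and did not pass (adjusted p = 0.30 and 0.45 by the edgeR quasi-likelihood test). With the epidermal covariate both turned, to 0.14 and 0.17.

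Clca3a2 fell by 4.04 on the log2 scale (SE 1.34; adjusted p = 0.037 by edgeR; two-sided exact permutation p = 0.0079, the smallest that 5 against 5 mice allow), without overlap of the groups. The sum of epidermal markers was 0.612 to 187 CPM after vehicle and 0.242 to 0.371 CPM after AICAR in these mice, likewise without overlap. The covariate for the epidermal sum brought Clca3a2 to -0.42 (adjusted p = 0.80 by edgeR). Because the sums do not overlap, the covariate cannot separate epidermal RNA from treatment in this comparison. Without the 6 libraries with Krt14 above 1 CPM, Clca3a2 was at -2.62. There HSALR mouse S451 alone stands for the vehicle group, so no test is given. The call was lost in 7 of the 10 fits that left out 1 mouse. Over all genes 26.6% passed, 13.7% higher and 13% lower after AICAR.

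In FVB mice, AICAR was compared with vehicle in 3 mice each. All 3 AICAR-treated mice (0.896, 0.916 and 0.172) were above all 3 vehicle-treated mice (0.0854, 0.0255 and 0) in Clca4a, with a ratio of means of 17.9 and a log2 fold change of 4.14 (SE 0.86). Without the libraries with Krt14 above 1 CPM this log2 fold change was 3.26, and without FVB mouse S445 it was 5.49. The vehicle-treated FVB mice belong to the comparison that chose the set, so the value is a description. Clca1, Clca3b and Clca3a2 were above the filter on low counts only because of the HSALR libraries, so they are given by their counts without a test. Clca1 had 4 to 15 counts after AICAR and 1 to 7 after vehicle, and Clca3b at most 6 in either group. Clca3a2 had 0 to 257 counts after AICAR and 1 to 305 after vehicle. Clca2 and Clca3a1 had log2 fold changes of 0.55 (SE 0.49; adjusted p = 0.50 by edgeR) and 0.12 (SE 0.30; adjusted p = 0.84 by edgeR) and did not pass. Without AICAR-treated mouse S448, which had 1.64 of Clca2 against 0.555 and 0.444 in mice S447 and S449, both turned, to -0.28 and -0.18. Over all genes 13.2% passed, 8.4% higher and 4.77% lower after AICAR.

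The AICAR effect in HSALR mice minus that in FVB mice was -4.81 (SE 0.95) for Clca4a, -2.61 (SE 0.83) for Clca1 and -2.48 (SE 1.25) for Clca3b on the log2 scale. Without FVB mouse S445 it was -6.16 for Clca4a and -4.49 for Clca3b, and without FVB mouse S450 it was -3.45 for Clca1. The genotype difference after vehicle, by which the set was chosen, is part of this quantity, so it is given without a test.

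**Figure D4:**
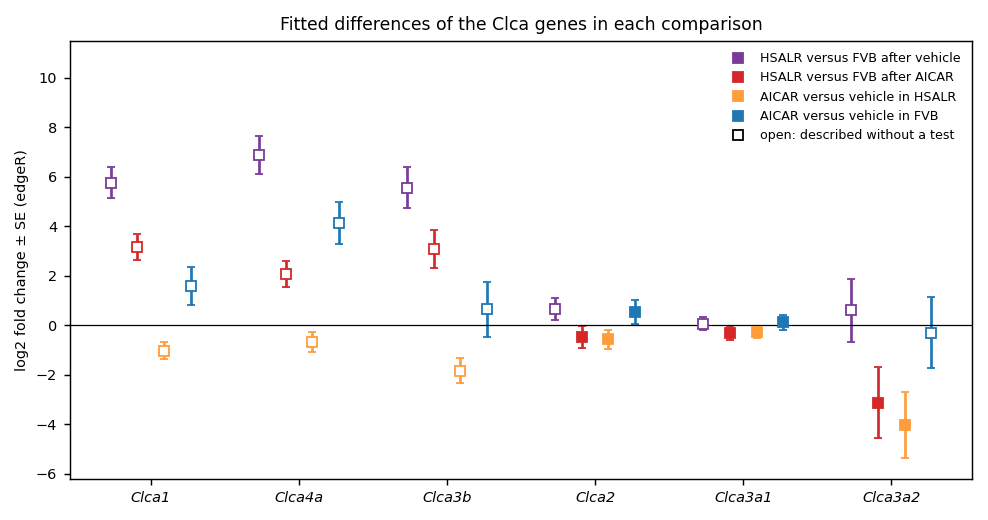
Log2 fold changes with their SE from the edgeR fit for the 5 members above the filter on low counts and Clca3b in the 4 comparisons, with open symbols for values described without a test. Clca1, Clca4a and Clca3b lie above 0 between genotypes after vehicle (5.76, 6.89 and 5.56) and after AICAR (3.15, 2.08 and 3.09), and Clca4a also between AICAR and vehicle in FVB mice (4.14).

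Ratios between genes within a mouse do not depend on the scaling of the library. They were looked at after the values were seen and are a description. The counts of Clca3b were 0.282 to 0.439 of those of Clca4a in the 5 HSALR mice after vehicle and 0.0966 to 0.198 in the 5 after AICAR. These ranges did not overlap. Per kb of transcript, Clca4a was 1.25 to 2.15 times Clca1 in HSALR mice after vehicle and 1.08 to 3.10 times Clca1 after AICAR, with overlapping ranges. In FVB mice after AICAR, where Clca4a had 12 to 70 counts and Clca1 4 to 15, this ratio was 2.94 to 4.57.

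**Figure D5:**
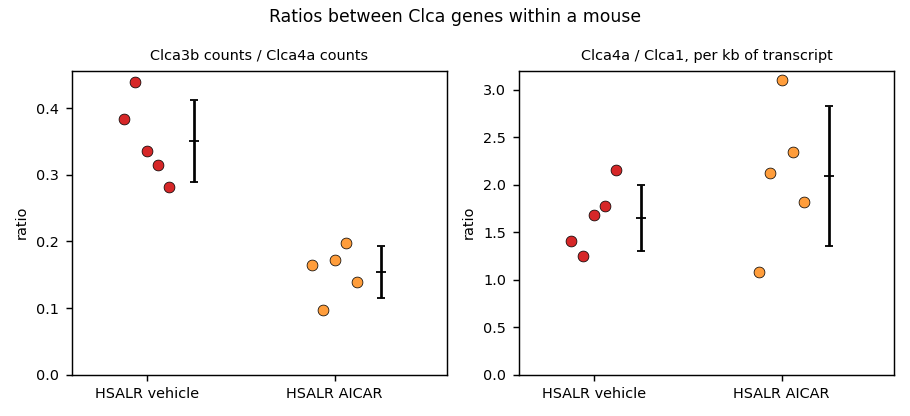
Ratio of Clca3b counts to Clca4a counts (left) and of Clca4a to Clca1 per kb of transcript (right) in each HSALR mouse (dots), with the mean and SD beside them. The Clca3b to Clca4a ratio is 0.282 to 0.439 after vehicle and 0.0966 to 0.198 after AICAR, whereas the Clca4a to Clca1 ratio overlaps between treatments.

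Over the 16 libraries, log2 levels of Clca1 had a Pearson correlation of 0.91 with those of Clca4a and of 0.92 with those of Clca3b. The points fall into a high and a low genotype, and the correlation describes that pattern. Of 13000 genes with a mean count of at least 50, those most like Clca1 were Serpinb1c (r = 0.967), Galnt7 (0.966), Ttc39c (0.964), Fam171b (0.964) and Cilp (0.961). Their mean levels in FVB and HSALR mice after vehicle were 2.37 and 10.3 CPM for Serpinb1c and 65.3 and 354 CPM for Cilp, an extracellular matrix protein of cartilage. Those most like Clca4a were Trim7 (0.942), 5930438M14Rik (0.938), Hsf2bp (0.926), Tmem181a (0.925) and Snx1 (0.92). Trim7, which binds the glycogen primer glycogenin, had group means of 22.4 and 32.6 CPM in FVB mice after vehicle and AICAR and of 57 and 60.1 CPM in HSALR mice. None of the other members was among the 5 genes most like Clca1 or Clca4a. Clca3a1 and Clca4b, with at most 49 and 3 counts in any library, could not be, since a mean count of 50 was required. Clca3b was also below this mean count.

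The genes around the cluster were looked at as well. Within 500 kb on either side, 6 genes had counts (Hs2st1, Selenof, Sh3glb1, Odf2l, Col24a1 and Znhit6). Between genotypes after vehicle, Selenof and Col24a1 were higher in HSALR mice, by log2 fold changes of 0.35 and 0.85 (adjusted p = 0.0018 and 0.032 by edgeR), and Znhit6 was lower, at -0.19 (adjusted p = 0.034 by edgeR). Between genotypes after AICAR none of the 6 passed the edgeR test, with 2 at an unadjusted p-value under 0.05, and their median log2 fold change was -0.10. After AICAR in HSALR mice, Sh3glb1, a gene of membrane remodelling and autophagy, rose by 0.33 (adjusted p = 0.00073 by edgeR), while Odf2l and Selenof fell by 0.21 and 0.17 (adjusted p = 0.035 and 0.046 by edgeR). In FVB mice Sh3glb1 rose by 0.29 (adjusted p = 0.017 by edgeR) and the collagen gene Col24a1 by 0.96 (adjusted p = 0.048 by edgeR). Over all genes 26.9%, 21.8%, 26.6% and 13.2% passed in the 4 comparisons, so that calls of 3, 0, 3 and 2 of 6 are no result about the flanks.

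CLCA proteins act on channels that other genes encode, and these were counted from fixed lists. Of 16 genes of calcium-activated chloride channels and their relatives (anoctamins, bestrophins and Ttyh genes), 13 were tested. Ano1, the channel that CLCA1 stabilises, was at 9.62 ± 1.37 CPM in FVB mice after vehicle, 7.01 ± 0.327 after AICAR (SD, n = 3 each), 5.05 ± 1.39 in HSALR mice after vehicle and 5.64 ± 0.571 after AICAR (SD, n = 5 each). It was lower in HSALR mice after vehicle, by a log2 fold change of -0.93 (SE 0.17; adjusted p = 0.0012 by edgeR), and Ttyh2 was higher (0.86; adjusted p = 0.0029 by edgeR). After AICAR, 1 of the 13 passed between genotypes, Ano6, a lipid scramblase and channel, with -0.49 (adjusted p = 0.0008 by edgeR), and the median of the list was -0.20. AICAR in HSALR mice raised Ano10 by 0.45 (adjusted p = 0.00011 by edgeR) and lowered Ttyh2 by 0.50 (adjusted p = 0.027 by edgeR). Ano9, which had 0 to 137 counts after vehicle and none after AICAR, is not read as a change, since it passed the filter on low counts only through the libraries in which it was high. In FVB mice, Ano6 and Ano10 rose by 0.53 and 0.35 (adjusted p = 0.0023 and 0.0093 by edgeR). The list medians were -0.07 and 0.26 in the AICAR comparisons of HSALR and FVB mice. With Ano9 the calls were 2, 1, 3 and 2 of 13 (genotypes after vehicle and after AICAR, AICAR in HSALR and in FVB mice), beside 26.9%, 21.8%, 26.6% and 13.2% of all genes, so that they are no result about the list.

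Of 27 other chloride channel and transporter genes, 21 were tested. Clcn1, the chloride channel that sets the resting conductance of muscle, was at 174 ± 17.6 CPM in FVB and 86.6 ± 12 CPM in HSALR mice after vehicle, with a log2 fold change of -1.01 (SE 0.11; adjusted p = 9.4e-06 by edgeR). After vehicle, 1 of the 21 was higher in HSALR mice (Lrrc8b, 0.84, a subunit of the volume-regulated anion channel) and 4 were lower, with the anion exchanger Slc26a6 at -0.55. After AICAR 6 were lower and the other 15 did not pass, with Clcn1 at -0.51 (adjusted p = 0.004), Lrrc8c at -0.55 (adjusted p = 0.0021) and Clcn2 at -0.53 (adjusted p = 0.044), all by edgeR, and a list median of -0.22. AICAR in HSALR mice raised 6, including Ostm1 (0.48), a partner of the lysosomal channel Clcn7, Slc26a6 (0.36) and Clcn1 (0.30; adjusted p = 0.032 by edgeR), and lowered 1, with a median of 0.13. In FVB mice 3 rose, Clic1 (0.71), Ostm1 (0.46) and Clcn6 (0.29), with a median of 0.14. These calls were 5, 6, 7 and 3 of 21 in the 4 comparisons, near the shares of all genes (26.9%, 21.8%, 26.6% and 13.2%), so that the counts are no result about the list.

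Markers of goblet cells and intestinal enterocytes were mostly at or near 0. Of 10 goblet cell markers, 2 were tested, and Tff3 was among 2 with no count in any library. The summed level of the 10 was 0.115 to 2.91 CPM in FVB mice after vehicle, 0.1 to 3.63 in FVB mice after AICAR, 0.376 to 5.28 in HSALR mice after vehicle and 0.199 to 0.872 in HSALR mice after AICAR, with Fcgbp, at a mean of 0.979 CPM, the highest. Muc2, the mucin of goblet cells, had at most 6 counts in any library. Spdef, a transcription factor of goblet cells, was at 0.083 ± 0.0641 and 0.0463 ± 0.0221 CPM in FVB (SD, n = 3 each) and 0.33 ± 0.0693 and 0.192 ± 0.0476 CPM in HSALR mice (SD, n = 5 each), after vehicle and AICAR. It had 2 to 11 counts in FVB libraries and 10 to 28 in HSALR libraries and was above the filter on low counts through the latter, so these levels are given without a test. Of 10 intestinal enterocyte markers, 2 were tested and 3 were at 0 in all libraries, Cdx2 among them, with Lgals4 the highest at 0.871 CPM. Their summed level was 1.54 to 2.27 and 0.939 to 2.20 CPM in FVB mice and 1.41 to 3.65 and 0.825 to 1.15 CPM in HSALR mice, after vehicle and AICAR. Epcam had 3 to 70 counts in FVB mice after vehicle and 2 to 94 after AICAR. In HSALR mice it had 7 to 189 counts after vehicle and 5 to 16 after AICAR. In this order of groups, 1, 1, 4 and 1 libraries reached the level of the filter on low counts for Epcam. For the epidermal marker Krt14 these numbers were 1, 1, 4 and 0.

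Markers of muscle fibres were abundant in all groups. The 8 of them summed to 133000 to 192000 CPM, with Myh4 the highest and Pvalb the lowest. After AICAR, 2 of the 8 were higher in HSALR mice, the fast myosin gene Myh1 (1.50; adjusted p = 7.8e-05 by edgeR) and Acta1 (0.46), while the fast myosin gene Myh4 was lower (-0.67; adjusted p = 0.018 by edgeR). After vehicle, Myh1 (1.52) and Acta1 (0.31) were higher, and AICAR lowered Pvalb in HSALR mice by 0.73. The transgene of HSALR mice is a human skeletal actin gene, and reads were mapped to the mouse genome only. Reads of the transgene may thus be included in the counts of Acta1, and their part in its difference between genotypes was not tested. Of 7 lymphatic markers, among which Lyve1 was the highest and Prox1 the lowest, 1 was lower in HSALR mice after vehicle (Reln) and 2 after AICAR (Flt4 and Reln), with medians of -0.31 and 0.02. AICAR lowered Ccl21a in HSALR mice, and in FVB mice it lowered Ccl21a and raised Flt4. The lymphatic sum was 73.4 to 94.3 CPM in FVB and 58.3 to 73.8 CPM in HSALR mice after vehicle, ranges that met at their ends. Of 7 blood endothelial markers, led by Pecam1 with Emcn the lowest, all were lower in HSALR mice after vehicle (median -0.52), 3 were lower after AICAR, and 4 rose with AICAR in HSALR mice. Smooth muscle markers (Smtn highest, Cnn1 lowest) had 2 of 5 lower in HSALR mice after vehicle, Myh11 (-0.83; adjusted p = 9.8e-05 by edgeR) and Cnn1 (-0.84; adjusted p = 0.032 by edgeR), and 1 of 5 lower in each of the other comparisons. Fibroblast markers (Dcn highest, Pdgfra lowest) had 2 of 5 lower with AICAR in HSALR mice, Col1a1 and Lum. Over all genes the shares that passed were 26.9% between genotypes after vehicle, 21.8% after AICAR, 26.6% for AICAR in HSALR mice and 13.2% in FVB mice, and counts of 1 or 2 of 5 to 8 markers are no result about a cell type beside them. Of 14 genes of the interleukin 4 and 13 pathway, which induces Clca1 in airways, 8 were tested. Il13 had at most 2 counts and Il4 at most 4 in any library, and neither passed the filter on low counts. Between genotypes, 1 of the 8 was higher and none lower, with list medians of 0.02 after vehicle and 0.12 after AICAR. Beside the shares of all genes these counts are no result about the pathway. Il13ra1, a receptor chain for interleukin 13, was higher in HSALR mice after vehicle (0.68; adjusted p = 0.0099) and after AICAR (0.52; adjusted p = 0.046, both by edgeR), and the chemokine gene Ccl24 fell with AICAR by 1.11 in FVB mice (adjusted p = 0.036 by edgeR) and by 0.76 in HSALR mice (adjusted p = 0.036 by edgeR), where Ccl11 rose by 0.32 (adjusted p = 0.0031 by edgeR). The part of any of these cells or signals in the levels of the Clca genes was not tested.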

How the data were processed

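Gene counts were deposited by the authors for 16 gastrocnemius libraries, as whole numbers without normalization. Single-end reads of stranded mRNA libraries had been mapped to mm10 with STAR 2.5.2a, 1 location was kept where hits scored equally, and reads starting in any RefSeq exon were counted per gene with QuasR. Totals were 64890014 to 81987726 counts per library.

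Differences were fitted with edgeR 4.0.16 under R 4.3.3 (TMM scaling, filterByExpr, glmQLFit and glmQLFTest with 1 mean per group over all 16 libraries, Benjamini-Hochberg adjustment over 15487 genes, threshold 0.05). The script was tested on simulated counts. The SE was the log2 fold change divided by the square root of the F statistic. Exact permutation tests were two-sided. Alternatives were other scalings, filters and dispersions, DESeq2 1.42.0, limma 3.58.1 with voom, only the groups compared, an epidermal covariate, each mouse left out, and, chosen after seeing the data, removal of the 6 libraries with Krt14 above 1 CPM. A planned test of the difference between the AICAR effects was left out for the members, because that difference contains the comparison by which they were chosen. Planned tests of Clca1 and Clca4a were left out because they were chosen on these mice, as were those of Clca3b, whose level went with theirs, and of Clca3a2 in FVB mice, where it passed the filter only through HSALR libraries. GENCODE vM21 and RefSeq GRCm38.p6 gave positions and sequences, aligned with Biopython 1.88.

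The members and gene lists were chosen with earlier results of these data known. Named were the members, up to 4 flanking genes per comparison past the threshold, Clcn1 and the 3 largest changes of each chloride channel list, the highest and lowest marker of each cell type list and those past the threshold with an absolute log2 fold change over 1 (up to 4 per comparison), and the 5 genes most like Clca1 and Clca4a. Clca3b was named by position, and Muc2, Flt4, Reln, Col1a1, Lum, Il13ra1, Ccl24, Ccl11, Ccl21a, Acta1, Myh11 and Ano9 after their values were seen. Labels do not say whether mice shared a litter or batch, so p-values measure the spread between these mice.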

Additional observations from a re-analysis of the deposited data

Results flagged for a closer look

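The level of Clca4a in HSALR mouse S460 after AICAR was 5.14 normalized CPM and lay far from those of the other 4 mice of its group, which were between 1.79 and 2.75. Among 14 groups of 5 values of the 7 coding Clca genes this was the only such value, and about 1 in 20 groups is marked by chance. The same mouse had the highest Clca3b of its group (0.882), whereas its Clca1 (1.62) was within the range of the others.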

How the results depend on the processing

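With 1 mouse left out, the fall of Clca3a2 with AICAR in HSALR mice ranged from -4.28 to -3.45 and passed in 3 of 10 fits. It was -0.42 with the epidermal covariate, -4.04 with robust dispersions (adjusted p = 0.051), and -2.62 without the 6 libraries with Krt14 above 1 CPM. Clca1 and Clca4a, which were not tested, kept their direction in each comparison under the alternatives that gave a value (none with at least 10 counts required in every library, and none for Clca1 in FVB mice when only these groups were fitted), with Clca1 in HSALR mice at -1.82 to -0.73 and Clca4a in FVB mice at 3.26 to 5.49. Clca3b, likewise not tested, was at -2.58 to -1.56 for AICAR in HSALR mice. Clca2 and Clca3a1 passed in none of their alternatives, and in some comparisons their direction turned with the epidermal covariate, without mouse S448 or without the 6 libraries, and for Clca3a1 in FVB mice also without mouse S445 (-0.02). The number of genes called was 2214 to 3790 between genotypes after AICAR and 1143 to 1726 for AICAR in FVB mice with 1 mouse left out, 1164 in the latter when only its groups were fitted, and 2108 for AICAR in HSALR mice with the covariate. Without the 6 libraries it was 904 between genotypes after vehicle, 899 for AICAR in HSALR mice and 697 in FVB mice, with fewer mice in each. The causes were not tested unless stated. No paired analysis was possible because mice of different groups share no replicate number. Counts of 0 to 7 in vehicle-treated FVB libraries limit the precision of the fold changes of Clca1, Clca4a and Clca3b against that group.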
